A study of Mus musculus with 17 samples.

Results

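The Wnt system was examined in the hippocampus of mice that had been kept awake and of mice left undisturbed. The genes taken were the Wnt ligands, the Frizzled receptors and the secreted Frizzled-related proteins, with Frzb, Dkk1, Dkk2, the co-receptors Lrp5 and Lrp6, and the intracellular genes Axin1, Axin2, Ctnnb1, Tcf7l2 and Lef1. They were found by symbol in the platform annotation, among probe sets (groups of short probes that read 1 transcript) with a single symbol. This gave 44 of the 18193 genes measured in this way, through 90 of 34945 probe sets. There were 19 ligands, 10 Frizzled receptors, 2 co-receptors, 7 secreted antagonists, 5 intracellular genes and Fzd10os, which is annotated as an opposite-strand transcript of Fzd10 and is not itself a receptor. The brightest probe set stood for each gene. The other 46 were tested too and are given by their range, with single values for some genes.

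The 8 sleep-deprived animals were male C57BL/6J mice kept awake in the home cage by gentle handling for 5 h from about lights on, and the 9 undisturbed animals were male mice of the same strain that stayed in their home cages over the same hours. All were housed singly under 12 h of light, had been handled daily for 6 days, with no transgene or drug named in the labels, which give an age of 2 months (2 to 4 months in the growth protocol). RNA of each dissected hippocampus was hybridised to its own Affymetrix mouse whole-genome array, 17 in all, and dissections alternated between the groups. No group was handled for those hours and then allowed to sleep, so that sleep loss and handling cannot be told apart.

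Wnt proteins are secreted, lipid-modified signals that bind Frizzled receptors. In the canonical branch, Frizzled and an Lrp co-receptor inactivate a complex held together by axin, beta-catenin (the product of Ctnnb1) accumulates, and it activates target genes together with TCF/LEF factors such as those encoded by Tcf7l2 and Lef1. Frizzled-related proteins bind Wnts outside the cell, and Dickkopf proteins block the Lrp co-receptors. In the hippocampus Wnt signals are known for their part in dentate gyrus formation, adult neurogenesis and synapse assembly, and in brain endothelium for maintaining the blood-brain barrier.

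Values are log2 signals, and differences are sleep-deprived minus undisturbed on that scale. Array medians lay between 6.14 and 6.22, and precision is limited by how many arrays there were. Of 18193 genes 723 passed an adjusted p of 0.05 in limma's test, 227 higher and 496 lower (31.4% higher, against 46.2% after a second quantile normalization, 44.0% after cyclic loess and 18.9% with arrays centred on their median). Of the defining hippocampal neuron markers, all 12 were measured, with a median log2 summed signal of 13.2 in sleep-deprived and 13.2 in undisturbed animals. None of the 12 passed, and 3 (25%) had an unadjusted limma p under 0.05, against 18.6% of all genes. Their differences were negative in 7 and positive in 5. Choroid plexus markers, which come from tissue beside the hippocampus, set 5 arrays apart: 3 sleep-deprived and 2 undisturbed animals had a log2 summed marker signal of 13.9 to 14.4, and the other 12 of 9.42 to 12.3. Thalamic markers overlapped between the groups, at 10.8 to 11.0 in sleep-deprived and 10.8 to 11.1 in undisturbed animals. In bulk tissue, fewer cells of a type and less RNA per cell cannot be told apart.

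Wnt9a was the 1 gene of the 44 that changed, and it fell; 3.97% of all genes passed the same test. Its signal ranged from 6.49 to 6.97 with a median of 6.84 in the 8 sleep-deprived animals, and from 7.11 to 7.65 with a median of 7.35 in the 9 undisturbed animals. All 8 sleep-deprived animals thus lay below the lowest undisturbed one. The means were 6.80 ± 0.16 (SD, n = 8) in sleep-deprived and 7.37 ± 0.20 (SD, n = 9) in undisturbed animals, a log2 difference of -0.56 (SE 0.078, 95% interval -0.73 to -0.40, limma adjusted p = 0.00029), which is 1.48-fold lower. In the order of p-values Wnt9a was number 17 of the 18193 genes. Group ranges did not overlap in 0.731% of all genes (133), and among the 44 in Wnt9a alone. The call stood in each of 34 other settings, with differences from -0.60 to -0.35 and adjusted p from 6.8e-05 to 0.016. Without the 5 arrays rich in choroid plexus markers the difference was -0.60 (adjusted p = 0.010).

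Wnt9a encodes a secreted ligand, known mainly from joint and limb development in mice and from blood stem cell formation in zebrafish. A second, dimmer probe set of the gene gave 4.09 to 4.92 (median 4.41) in sleep-deprived and 4.50 to 4.66 (median 4.54) in undisturbed animals. Its groups overlapped: 6 of 8 sleep-deprived animals lay below every undisturbed one, and 1 lay above every undisturbed one. Its log2 difference was -0.13 (SE 0.078, probe-set-level adjusted p = 0.45). The responses of the 2 probe sets differed by 0.43 (SE 0.10, limma adjusted p = 0.039), where 1.3% of 16752 such pairs passed over all genes. The dimmer set had a mean of 4.50, below the 25th percentile of all array values (4.61). With the mean of both probe sets the difference of Wnt9a was -0.35 (adjusted p = 0.0027).

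**Figure D1:**
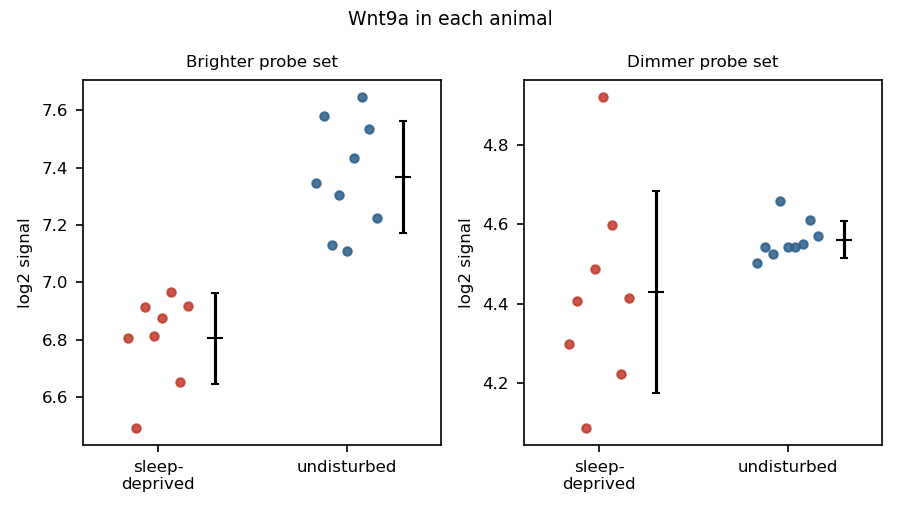
Wnt9a log2 signal in each animal for its brighter probe set (left) and dimmer probe set (right), with sleep-deprived animals in red (n = 8) and undisturbed animals in blue (n = 9); the vertical axes differ, and black bars give the mean and SD. In the brighter set the highest sleep-deprived value, 6.97, is below the lowest undisturbed value, 7.11, while the groups overlap in the dimmer set.

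The promoter window of Wnt9a is shown because it belongs to the member that changed. RefSeq places the gene on chromosome 11 of GRCm38.p6 at 59306849 to 59333552, on the plus strand, and the window runs from 250 bases before to 50 after the start that RefSeq's promoter table uses, chr11:59306680-59306979. Capitals mark 1 E-box (CACGTG, the element bound by CLOCK and BMAL1 among other factors) and 5 GC boxes (GGGCGG, or CCGCCC for the other strand, bound by SP and KLF factors).
Wnt9a: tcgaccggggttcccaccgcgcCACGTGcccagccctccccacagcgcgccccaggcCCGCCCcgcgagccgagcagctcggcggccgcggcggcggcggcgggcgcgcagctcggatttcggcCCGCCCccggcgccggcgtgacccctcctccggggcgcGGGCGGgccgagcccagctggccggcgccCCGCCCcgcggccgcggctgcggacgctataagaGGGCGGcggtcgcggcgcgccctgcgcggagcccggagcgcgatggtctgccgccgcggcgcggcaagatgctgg
The window has 83.3% G and C, against a median of 52.7% over 32851 RefSeq mouse windows of the same length, and holds 58 CpG dinucleotides. The E-box begins at position -228 relative to that start. The 6 letters of the E-box occur in 7.15% of all windows. The 30 members that had a window had 38 in all, and 3 of the 38 held an E-box, in Wnt9a, Fzd9 and Lef1. The GC box occurs in 35.7% of all windows and in 29 of these 38, from 24 of the 30 members. A TCF/LEF site written as CTTTGAT on either strand was found in the windows of Wnt5b and Wnt11 only among the 30 (3.73% of all windows), and as CTTTGAA in that of Dkk1 (5.14%). The full cAMP response element TGACGTCA, present in 1.79% of all windows, was in no member's window. These are letter matches and say nothing of binding.

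Of the 19 ligands Wnt9a fell, none rose and 18 did not pass. Over all 44 genes 2.27% passed, against 3.97% of all genes (1.25% higher and 2.73% lower), so that the share called was no higher than the background. The median difference of the 44 was 0.024 and that of all genes 0.0016. An unadjusted p under 0.05 was reached by 8 of the 44, or 18.2%, against 18.6% of all genes. These were 4 of the 19 ligands (21.1%) and 4 of the 10 Frizzled receptors (40%). The 43 genes other than Wnt9a differed by -0.16 to 0.17, and their 95% intervals ran from -0.29 to 0.30. Positive differences were found in 14 of 19 ligands, and in 9248 of all 18193 genes. The ligand count was 11 after a second quantile normalization, cyclic loess or without the 5 choroid-rich arrays. With the most variable probe set it was 16. Many of the genes were dim: 19 of the 44 had a mean below the median of all array values (6.18), and 6 below the 25th percentile (4.61). Among the ligands above that median 4 differences were positive and 3 negative. A dim gene that did not pass was thereby not shown to be stable.

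**Figure D2:**
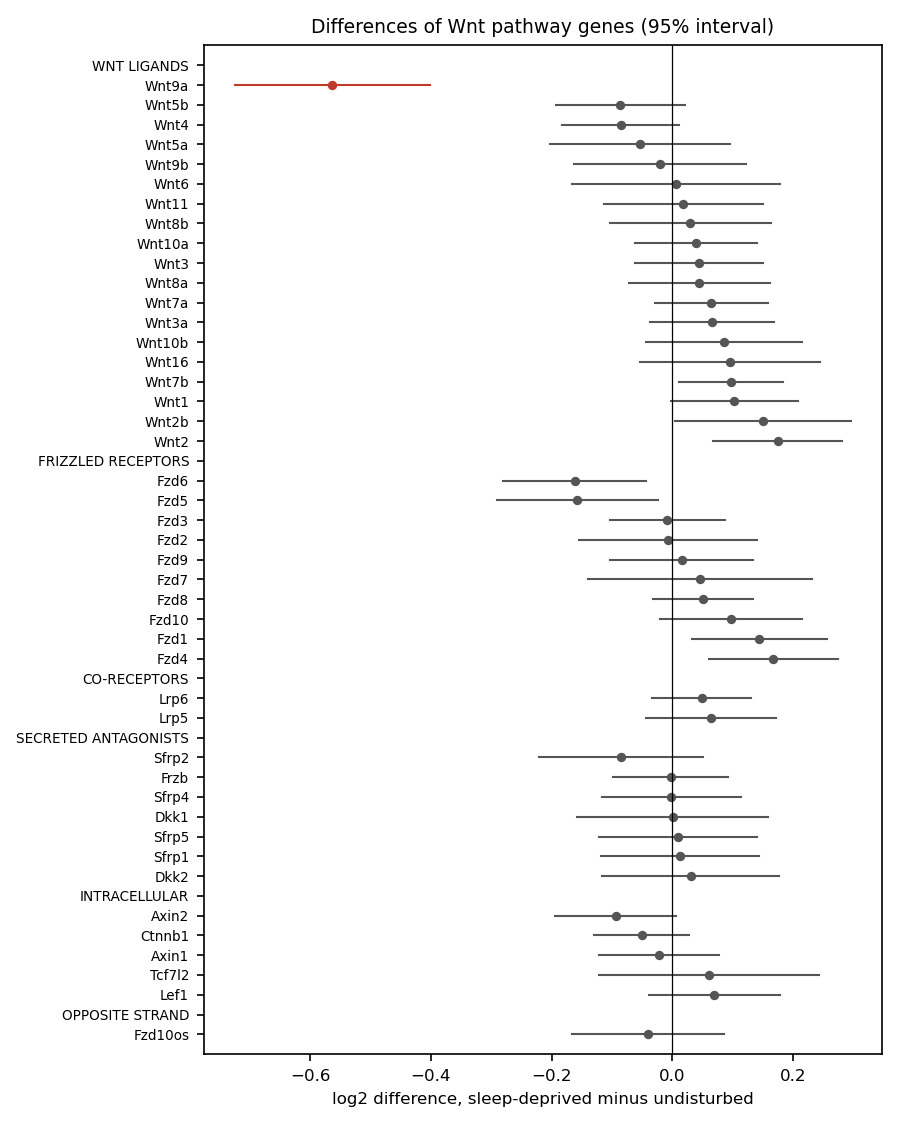
Log2 difference (sleep-deprived minus undisturbed) with its 95% interval for each of the 44 genes, ordered by role and size; red marks an adjusted p under 0.05. Wnt9a at -0.56 stands alone, and the other 43 lie between -0.16 and 0.17.

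Among the other ligands the smallest p belonged to Wnt2, which encodes a ligand known from lung and placental vessel development. Wnt2 ranged from 6.94 to 7.22 (median 7.00) in sleep-deprived and from 6.75 to 7.06 (median 6.87) in undisturbed animals. All 8 sleep-deprived values were above the undisturbed mean, yet only 2 exceeded the highest undisturbed value. The difference of 0.17 (SE 0.051) missed the threshold (adjusted p = 0.059), and it passed in 4 of 34 other settings, among them a filter on signal above the median of all values (adjusted p = 0.034), a filter above the 25th percentile (0.049) and the fit without undisturbed replicate 4 (0.033).

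Wnt7b and Wnt7a encode the ligands through which neural cells signal to brain endothelium, and Wnt7b also acts on dendrite growth. Wnt7b ranged from 9.16 to 9.37 (median 9.22) in sleep-deprived and from 9.05 to 9.24 (median 9.17) in undisturbed animals. Here 4 sleep-deprived animals lay above every undisturbed one and the remainder overlapped. The difference was 0.097 (SE 0.041, adjusted p = 0.20). It passed after a second quantile normalization or cyclic loess (0.13 in each case, adjusted p = 0.048 and 0.042), and a dimmer probe set of the gene was at -0.019.

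Wnt7a was at 0.065 (adjusted p = 0.47) through its brightest probe set, with 7.69 to 7.91 in sleep-deprived and 7.61 to 7.87 in undisturbed animals. Its other probe sets differed by 0.15 and 0.21 (probe-set-level adjusted p = 0.29 and 0.086). The mean of its 3 probe sets differed by 0.14 and passed narrowly (adjusted p = 0.049). The set at 0.21 was dim, with a mean of 4.06, below the 25th percentile of all array values (4.61). All 3 sets had a positive sign, and none passed by itself.

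Wnt2b, a ligand known from eye and lung development, was at 5.24 to 5.37 (median 5.28) in sleep-deprived animals, against 4.84 to 5.45 (median 5.14) in undisturbed animals. The sleep-deprived values all fell inside the undisturbed range. The difference was 0.15 (SE 0.071, adjusted p = 0.25). The other 15 ligands, those with an unadjusted p of at least 0.05, lay between -0.086 (Wnt5b) and 0.10 (Wnt1). Wnt3a, a canonical ligand needed for hippocampal development, was at 0.066 (adjusted p = 0.50). Wnt5a, the best known ligand of the beta-catenin-independent branch, was at -0.054 (adjusted p = 0.73). Another Wnt5a probe set was at -0.13 (probe-set-level adjusted p = 0.29), and 2 of its 4 sets had a positive sign.

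None of the 10 Frizzled receptors passed. An unadjusted limma p under 0.05 was reached by 4 of the 10, or 40%, against 18.6% of all genes. Of these 4, Fzd1 and Fzd4 were higher and Fzd5 and Fzd6 lower. The smallest p was that of Fzd4, the receptor for Norrin as well as for Wnts in retinal and brain vessels. Fzd4 ranged from 7.02 to 7.43 (median 7.09) in sleep-deprived and from 6.91 to 7.10 (median 6.96) in undisturbed animals. All 8 sleep-deprived values were above the undisturbed mean and 4 were above every undisturbed value. The difference was 0.17 (SE 0.052, adjusted p = 0.072); it passed with a filter above the median signal (adjusted p = 0.042) and in an exact rank-sum test (adjusted p = 0.046). A second probe set of Fzd4 differed by 0.20 (probe-set-level adjusted p = 0.13) and the dimmest by 0.029.

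Fzd1, a canonical receptor, ranged from 7.74 to 8.20 (median 7.96) in sleep-deprived and from 7.64 to 7.94 (median 7.82) in undisturbed animals. Of the 8 sleep-deprived values 6 were above the whole undisturbed range. The difference was 0.14 (SE 0.054, adjusted p = 0.15), and its other probe set was at 0.12.

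Fzd6, a receptor of the planar cell polarity branch that is also found in brain endothelium, had the opposite sign. It ranged from 7.60 to 7.93 (median 7.66) in sleep-deprived and from 7.67 to 8.08 (median 7.86) in undisturbed animals, and 5 sleep-deprived animals lay below the undisturbed range. The difference was -0.16 (SE 0.057, adjusted p = 0.12). Its 2 dimmer probe sets had positive differences of 0.096 and 0.055, and the larger gap to the brightest one, 0.26, missed the threshold (adjusted p of the difference = 0.060).

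Fzd5, a canonical receptor, was dim, at 4.07 to 4.63 (median 4.44) in sleep-deprived and 4.41 to 4.76 (median 4.54) in undisturbed animals. Its difference was -0.16 (SE 0.065, adjusted p = 0.19), and its other probe set had the opposite sign (0.078). The remaining 6 receptors lay between -0.0078 (Fzd3, a receptor needed for axon tract formation) and 0.097 (Fzd10). Fzd10os was at -0.040 (adjusted p = 0.76).

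**Figure D3:**
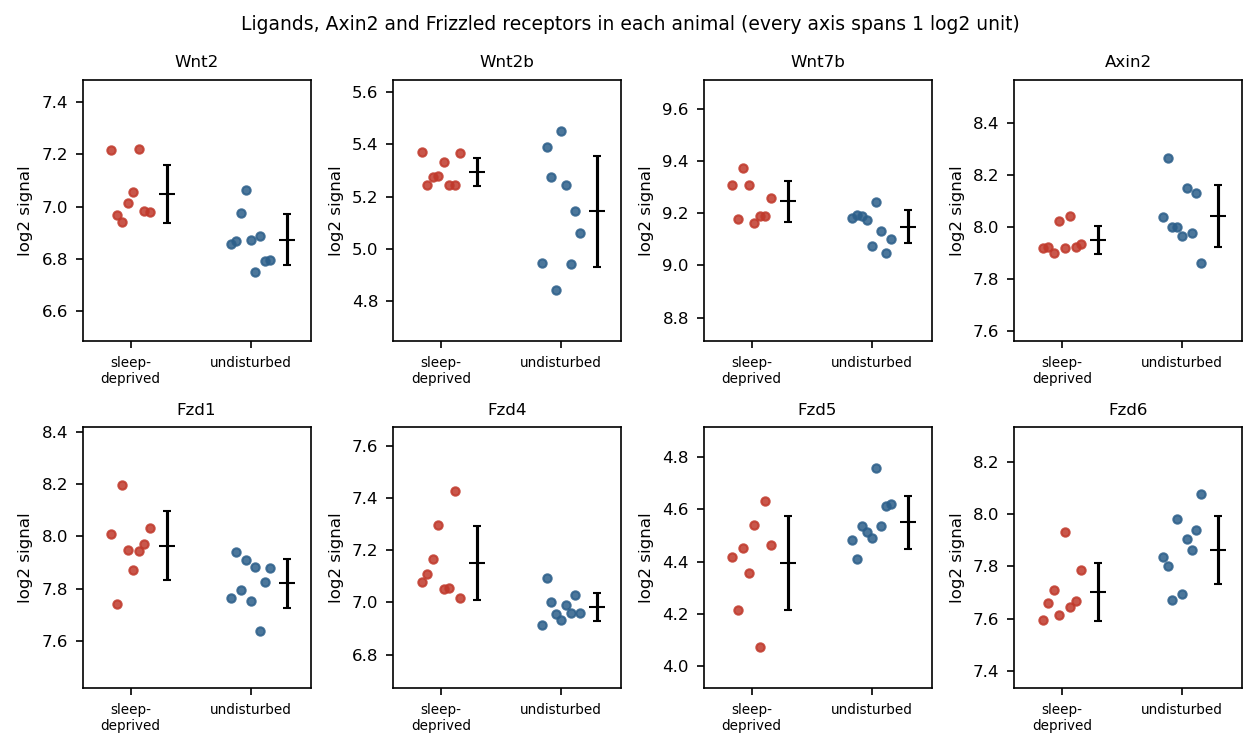
Log2 signal in each animal for 3 ligands, Axin2 and 4 Frizzled receptors, with sleep-deprived animals in red (n = 8) and undisturbed animals in blue (n = 9); black bars give the mean and SD, and every axis spans 1 log2 unit. All panels show overlap between the groups; Fzd1 has 6 of 8 sleep-deprived animals above the undisturbed range and Fzd6 has 5 of 8 below it.

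Fzd7 was the gene of the 44 that varied most between animals of a group, with a pooled SD of 0.21. It ranged from 6.47 to 7.00 (median 6.84) in sleep-deprived and from 6.41 to 7.09 (median 6.77) in undisturbed animals, with a difference of 0.047 (SE 0.090, adjusted p = 0.82). Its other probe set ranged from 6.06 to 6.54 (median 6.37) in sleep-deprived and from 5.97 to 6.26 (median 6.19) in undisturbed animals, with 6 of 8 sleep-deprived animals above the undisturbed range. That set differed by 0.17 (SE 0.059, probe-set-level adjusted p = 0.15). In the 5 arrays rich in choroid plexus markers the brightest set was at 6.84 to 7.09 (median 6.99), and in the other 12 it was 6.41 to 6.88 (median 6.69). The part of choroid plexus tissue in this spread was not tested. The pooled SD of the 44 genes had a median of 0.12 and was lowest for Ctnnb1, at 0.057.

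**Figure D4:**
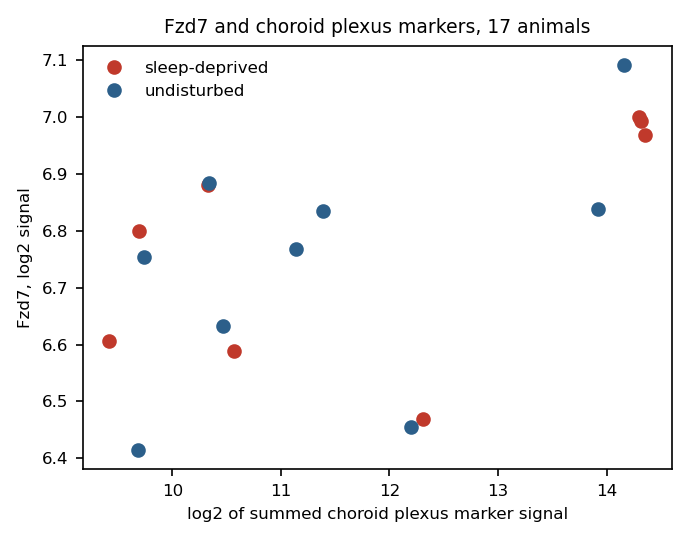
Fzd7 log2 signal against the log2 summed signal of choroid plexus markers for 8 sleep-deprived (red) and 9 undisturbed (blue) animals. The 5 animals with marker sums above 13 have Fzd7 between 6.84 and 7.09, in either group, and the other 12 between 6.41 and 6.88.

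The co-receptor genes did not pass either. Lrp6, the main canonical co-receptor in the developing brain, ranged from 8.58 to 8.74 (median 8.63) in sleep-deprived and from 8.46 to 8.68 (median 8.60) in undisturbed animals. Its difference was 0.049 (95% interval -0.034 to 0.13, adjusted p = 0.54). Lrp5, its relative with a part in retinal vessels and bone, was dim, at 4.45 to 4.69 (median 4.50) in sleep-deprived and 4.17 to 4.58 (median 4.51) in undisturbed animals, with a difference of 0.064 (95% interval -0.044 to 0.17, adjusted p = 0.54). The groups overlapped in both genes.

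None of the 7 secreted antagonists passed: their differences ran from -0.085 (Sfrp2) to 0.031 (Dkk2), with 0 at an unadjusted p under 0.05. Frzb, a Frizzled-related Wnt-binding protein, was at 9.08 ± 0.063 (SD, n = 8) in sleep-deprived and 9.08 ± 0.10 (SD, n = 9) in undisturbed animals. Its 95% interval was -0.097 to 0.092. Dkk1, an Lrp-binding inhibitor linked to synapse loss in rodents, was at 4.34 ± 0.22 (SD, n = 8) in sleep-deprived and 4.34 ± 0.13 (SD, n = 9) in undisturbed animals, below the 25th percentile of all array values. Sfrp1, read by 5 probe sets of mixed sign, was at 0.013 (adjusted p = 0.94).

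Of the intracellular genes Axin2, a scaffold of the destruction complex and a widely used canonical target, came nearest to the threshold. It ranged from 7.90 to 8.04 (median 7.92) in sleep-deprived and from 7.86 to 8.26 (median 8.00) in undisturbed animals. The sleep-deprived range lay inside the undisturbed one, and 7 of the 8 values were below the undisturbed mean. The difference was -0.094 (SE 0.048, adjusted p = 0.30), and a dimmer probe set had the opposite sign (0.11). Ctnnb1, which encodes beta-catenin, ranged from 12.73 to 12.85 (median 12.78) in sleep-deprived and from 12.76 to 12.93 (median 12.84) in undisturbed animals, with a difference of -0.051 (95% interval -0.13 to 0.027, adjusted p = 0.49). The other probe sets of Ctnnb1 had the opposite sign (0.025 and 0.035). Axin1 was at -0.022 (adjusted p = 0.84), and its other probe set was at 0.032.

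Lef1, a transcription factor gene needed for dentate granule cells, ranged from 5.57 to 5.95 (median 5.73) in sleep-deprived and from 5.58 to 5.84 (median 5.65) in undisturbed animals. The difference was 0.070 (95% interval -0.038 to 0.18, adjusted p = 0.50). Tcf7l2, whose product is abundant in thalamic neurons, varied widely, from 5.65 to 6.12 (median 5.84) in sleep-deprived and from 5.41 to 6.11 (median 5.85) in undisturbed animals. Its difference was 0.060 (95% interval -0.12 to 0.24, adjusted p = 0.75), and 2 of its 4 probe sets had a negative sign. Wnt6, which with Fzd7 and Tcf7l2 had the widest spread, gave 5.36 to 6.06 (median 5.97) in sleep-deprived and 5.57 to 6.13 (median 5.91) in undisturbed animals and a difference of 0.0062 (adjusted p = 0.98). Of the 29 members with several probe sets, the sets had 1 sign in 15 and mixed signs in 14. The 46 sets beside the brightest differed by -0.15 to 0.21, with 6 at an unadjusted p under 0.05. No set other than the brighter one of Wnt9a passed over all probe sets (1.81% of 45037 did).

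Beyond these genes, 85 of 87 further pathway genes were measured: 2 fell, none rose and 83 did not pass, with a median difference of -0.028. The share called was 2.35%, against 3.97% of all genes, and 20% had an unadjusted p under 0.05, against 18.6% of all genes. Those that fell were among the 34 other secreted and membrane genes (5.88% called), of which 8 (23.5%) had an unadjusted p under 0.05. None of 34 further intracellular genes (Dvl, Gsk3, casein kinase and others) and none of 17 further nuclear genes passed by limma's adjusted p, with 6 (17.6%) and 3 (17.6%) at an unadjusted p under 0.05, shares close to the 18.6% of all genes.

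Gpc4 encodes glypican-4, a heparan sulfate proteoglycan that modulates Wnt signals and, released by astrocytes, promotes excitatory synapses. It ranged from 9.23 to 9.48 (median 9.40) in sleep-deprived and from 9.54 to 9.80 (median 9.67) in undisturbed animals, and the groups did not overlap. The difference was -0.29 (SE 0.047, limma adjusted p = 0.0013). A dimmer probe set was at -0.17 (probe-set-level adjusted p = 0.18).

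Apcdd1 encodes a membrane-bound Wnt inhibitor that is also a target of the pathway and is found in brain vessels. It ranged from 8.98 to 9.41 (median 9.30) in sleep-deprived and from 9.36 to 9.85 (median 9.57) in undisturbed animals, and 6 of 8 sleep-deprived values were below the undisturbed range. The difference was -0.36 (SE 0.074, limma adjusted p = 0.0068), and 3 of the gene's 5 further probe sets also passed, at -0.40 to -0.30. The remaining sets were at -0.015 (8.51 in sleep-deprived and 8.53 in undisturbed animals) and -0.0053 (4.70 in each group), with probe-set-level adjusted p = 0.94 and 0.98. Apcdd1 was the 1 gene of 18 measured canonical targets that changed, or 5.56% against 3.97% of all genes. An unadjusted p under 0.05 was reached by 5 of these 18 targets, or 27.8%, against 18.6% of all genes. Axin2, Lef1, Fzd7 and Dkk1 among the members belong to that list too. Other targets did not pass, such as Ccnd1 (0.11, adjusted p = 0.14), Znrf3 (-0.18, adjusted p = 0.13) and Lgr5 (-0.15, adjusted p = 0.13).

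Of 9 measured markers of endothelium and pericytes 3 passed, all lower, which is 33.3% against 3.97% of all genes. This list, like the others, was chosen with earlier results of these data known. Pdgfrb fell by 0.37, Slco1a4 by 0.32 and Tek by 0.26 on the log2 scale (limma adjusted p = 0.0049, 0.0057 and 0.040). Over the 9 markers 5 differences were negative and 4 positive. The log2 summed signal of these markers was 12.5 to 12.7 in sleep-deprived and 12.6 to 12.8 in undisturbed animals. With the mean of the vessel markers as a covariate the difference of Wnt9a was -0.49 (adjusted p = 0.016) and that of Gpc4 was -0.35 (adjusted p = 0.0048). Apcdd1 lost its call there (-0.26, adjusted p = 0.15), in a fit where 1.46% of all genes passed. Since 3 markers in the covariate differed between the groups themselves, this fit cannot tell vessel content and a response to the treatment apart. Apcdd1 also lost its call without the 5 choroid-rich arrays (-0.34, adjusted p = 0.091), where 0.621% of all genes passed. None of 8 astrocyte, 7 oligodendrocyte, 10 meningeal fibroblast, 10 thalamic or 11 choroid plexus markers passed in limma. Of these only Otx2, a choroid plexus marker, had an unadjusted limma p under 0.05. All 11 choroid plexus differences were positive, with a median of 0.22. Differences were negative in 8 of 10 meningeal fibroblast and 8 of 10 thalamic markers. The astrocyte markers had 5 negative and 3 positive differences, and the oligodendrocyte markers 4 and 3.

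**Figure D5:**
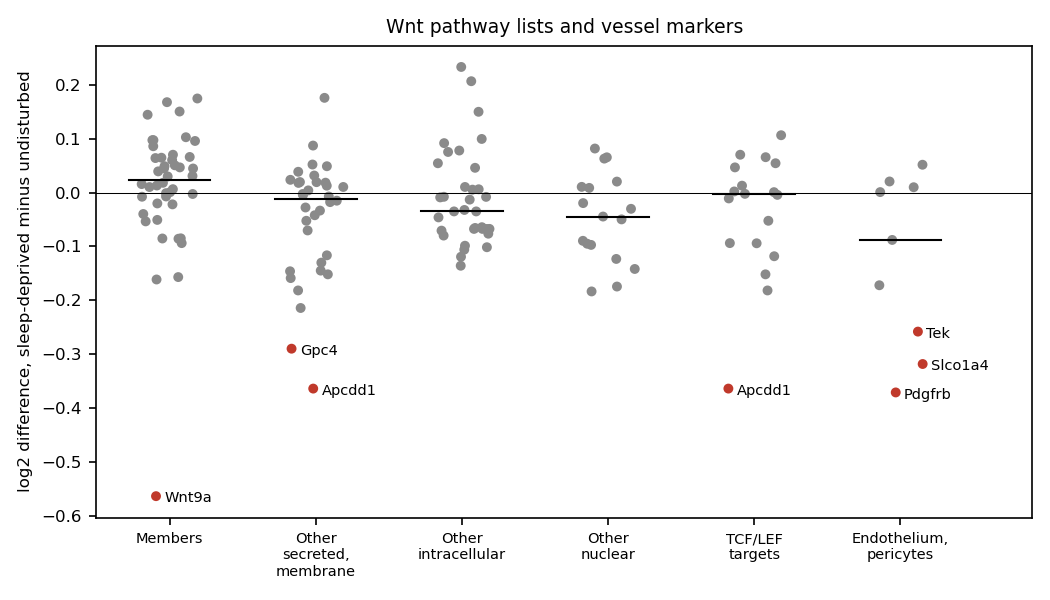
Log2 difference (sleep-deprived minus undisturbed) of each gene in the 44 members, in 4 Wnt pathway lists and in the endothelium and pericyte markers. The 4 lists are other secreted and membrane, other intracellular and other nuclear genes, and the canonical targets. Lines are medians and red marks an adjusted p under 0.05. Wnt9a, Gpc4, Apcdd1 and 3 vessel markers are red, all below 0. Apcdd1 appears in 2 lists, and the members Axin2, Lef1, Fzd7 and Dkk1 appear among the targets too.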

How the data were processed

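Hippocampal RNA of 8 sleep-deprived and 9 undisturbed mice was measured on 17 arrays, 1 animal each. The authors deposited log2 signals, 1 for each probe set; RMA and affy are named in the submitters' processing notes, without versions. That the scale is log2 rests on the values, which lie between 2.90 and 14.8. Gene symbols came from the platform annotation, and all 90 probe sets of the members matched RefSeq symbols by Entrez identifier. With limma 3.58.1 (R 4.3.3; lmFit, eBayes) sleep-deprived and undisturbed animals were compared on 18193 genes, each through its brightest probe set, and again on 45037 probe sets, with Benjamini-Hochberg adjustment over all and a threshold of 0.05. For genes with several probe sets, each further set minus the brightest was fitted in the same way. The code was tested on simulated data. Members and lists were chosen with earlier results of these data known.

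Values per animal were given for members that passed, for the 3 members with the widest spread and for Axin2, Lef1, Tcf7l2, Ctnnb1, Lrp5, Lrp6 and Wnt7b. Wnt2, Wnt2b, Wnt7a, Fzd1, Fzd4, Fzd5, Fzd6, Frzb and Dkk1 were added after their values were seen. Alternatives covered signal filters, normalization, probe set choice, model options, covariates, other tests and each array left out. Leaving out 5 arrays and the vessel covariate were added after seeing the data. Replicates are separate animals, and the labels used here give no batch.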

Additional observations from a re-analysis of the deposited data

Results flagged for a closer look

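In 6 of the 88 groups tested (44 genes in 2 groups of animals) a single animal stood apart from the rest of its group, where chance gives about 1 in 20. In sleep-deprived animals Wnt6 had 5.36 in replicate 4 with the next value at 5.88, Sfrp2 had 4.58 in replicate 2 with the next at 4.86, and Sfrp4 had 7.72 in the same animal with the next at 7.53. Fzd8 had 6.65 in sleep-deprived replicate 1 with the next value at 6.57, and Fzd10os had 7.64 in sleep-deprived replicate 5 with the next at 7.32. Among undisturbed animals Lrp5 had 4.17 in replicate 2, with the next value at 4.42. None of these genes passed in limma's test, where their adjusted p ran from 0.51 to 0.99.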

How the results depend on the processing

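Wnt9a was lower in sleep-deprived animals and passed in each of the 34 alternatives run. Between 0 and 1 member was higher on leaving out 1 array at a time (Wnt2, without undisturbed replicate 4). Members higher numbered 2 with genes above the median signal (Wnt2, Fzd4) and 2 with a second quantile normalization (Wnt2, Wnt7b), and 1 with genes above the 25th percentile (Wnt2), cyclic loess (Wnt7b), the mean of all probe sets (Wnt7a) and the exact rank-sum test (Fzd4). Over all genes, 227 were higher and 496 lower; the higher count was 142 with arrays centred on their median. The counts were 133 higher and 220 lower with a thalamus covariate, 143 and 324 with an unequal variance test, 87 and 179 with an endothelium covariate, and 49 and 64 without the 5 choroid-rich arrays. Leaving out 1 array at a time gave 150 to 236 higher (lowest without undisturbed replicate 8) and 307 to 581 lower (lowest without undisturbed replicate 4). With pairs of probe sets both above the 25th percentile, 0 members passed in limma, since the dimmer Wnt9a set was left out.

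Replicate numbers were shared by 8 pairs of animals, whose deviations correlated at -0.16 to 0.39, with 3 pairs over 0.1. These values cannot settle whether animals of the same number belong together, and the main fit treats them as unpaired. With the replicate number as a block 241 genes were higher and 672 lower, Wnt9a was at -0.58 (limma adjusted p = 0.0043), and 2 probe sets of members passed, the second being the dimmest of Wnt7a (0.23, adjusted p = 0.036).

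The sign turned for genes that did not pass. Averaging a gene's probe sets gave a log2 difference of 0.0066 for Axin2, -0.0094 for Tcf7l2, 0.0030 for Ctnnb1 and -0.0039 for Wnt6. With the most variable probe set it was -0.019 for Wnt7b, 0.11 for Axin2 and 0.035 for Ctnnb1. Without the choroid-rich arrays it was -0.034 for Tcf7l2, -0.0091 for Fzd7 and -0.043 for Wnt6. With a choroid plexus covariate it was -0.013 for Fzd7 and -0.031 for Wnt6. Wnt6 was at -0.017 after quantile normalization, -0.011 after centring, -0.023 after cyclic loess, -0.010 with a thalamus covariate, and -0.035 to 0.083 on leaving out 1 array. The causes were not tested.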
